A study of Mus musculus with 9 samples.

Results

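The granzymes are the serine proteases that cytotoxic lymphocytes store in granules, and their transcripts are described here in sorted mouse splenic T cells before and after bone marrow transplantation. The family was taken as 10 gene symbols (Gzma, Gzmb, Gzmc, Gzmd, Gzme, Gzmf, Gzmg, Gzmk, Gzmm and Gzmn). Of these, 9 had a row among the 29229 genes of the deposited count table, matched by Ensembl identifier, and Gzmn is not analysed here. Of the 9 genes, 6 had enough reads to be tested between groups (Gzma, Gzmb, Gzmc, Gzmf, Gzmk and Gzmm). Gzmd, Gzme and Gzmg did not pass the filter on low counts and are given as counts. Gzmf passed through the allogeneic libraries alone.

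The study compared T cells at rest with donor T cells 7 days after transplantation, in 3 libraries of total RNA per group. The naive libraries came from healthy C57BL/6 mice that had no transplant. For the transplants, splenic T cells and T-cell-depleted marrow of C57BL/6 (CD45.2) donors were injected into irradiated CD45.1 recipients, and all mice were 8 to 12 week-old females. In the syngeneic group the recipients were B6.SJL-Ptprca Pepcb/BoyJ, which share the donors' H-2b haplotype, and they had 9.5 Gy and 8500000 T cells. In the allogeneic group the recipients were CByJ.SJL(B6)-Ptprca/J, of haplotype H-2d, and they had 8 Gy and 1000000 T cells. Recipient type, radiation dose and T-cell dose therefore changed together and cannot be told apart. Both groups had 5000000 marrow cells, the offspring of which are CD45.2+ too and could enter the sort for live CD3+ CD45.2+ cells. Cells of 2 to 4 recipients were pooled for each transplant library. For the naive libraries the sources used here do not say whether mice were pooled. The strain tag gives B6.SJL-Ptprca Pepcb/BoyJ for all 9 libraries, against the protocols, and groups follow the titles.

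Granzymes enter a target cell with the help of perforin and cleave proteins inside it. Granzyme B cuts after aspartate and starts apoptosis through Bid and the caspases, whereas granzymes A and K are tryptases. Resting T cells hold little granzyme, and activated CD8 T cells and natural killer cells hold much. In the mouse, Gzmb stands beside a row of duplicated genes, Gzmc to Gzmg and Gzmn, at the granzyme B and chymase locus, while Gzma and Gzmk are neighbours on another chromosome and Gzmm lies near the neutrophil protease genes.

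Libraries held 103953932 to 176678189 counts, so that 3 counts, the limit set by a count of 0, were worth 0.0170 to 0.0289 counts per 1000000 of the library total (CPM). This limit covers counting error only. Between 7.87% and 22.4% of counts fell on Gm26917 and Gm42418, taken here from background knowledge as a ribosomal RNA locus. Summed over 6 T-cell markers (Cd3d, Cd3e, Cd3g, Cd2, Cd5 and Lck), the level was 2883 to 3165 CPM in naive, 1942 to 2339 CPM in the syngeneic and 2739 to 2934 CPM in the allogeneic libraries. Markers of other cells were also present after transplantation. Of these, 7 neutrophil markers summed to 1.53 to 5.05 CPM in naive, 405 to 1356 CPM in the syngeneic and 599 to 1085 CPM in the allogeneic libraries. The sum of 5 macrophage and monocyte markers was 3.08 to 4.20, 46.7 to 172 and 47.4 to 83.5 CPM in the same order. B and plasma cell markers, 4 in number, gave 2.96 to 4.70, 8.65 to 35.9 and 31.0 to 52.0 CPM. For 4 plasmacytoid dendritic cell markers the sums were 82.2 to 87.1, 55.6 to 60.9 and 82.5 to 122 CPM, mostly from Ccr9 and Bst2, while the defining marker Siglech was 0.109, 1.40 and 0.0977 CPM. The sums were 51.7 to 62.0, 19.4 to 21.9 and 11.7 to 17.1 CPM for 4 gamma delta T-cell markers. In bulk libraries such as these, fewer cells of a type and less RNA per cell cannot be told apart.

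The copies beside Gzmb are close enough in sequence for reads to be shared, which bears on how their rows are read. The first 75 coding bases of the 5 copies with a row, and of Gzmb, are shown from the GRCm38 gene models of GENCODE M21. Capitals mark the bases that differ from the most common base among the 5 copies.
Gzmc: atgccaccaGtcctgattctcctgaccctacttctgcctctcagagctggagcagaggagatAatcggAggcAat
Gzmd: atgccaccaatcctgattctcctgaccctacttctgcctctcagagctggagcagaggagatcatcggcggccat
Gzme: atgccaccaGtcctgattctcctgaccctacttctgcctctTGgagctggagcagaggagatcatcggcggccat
Gzmf: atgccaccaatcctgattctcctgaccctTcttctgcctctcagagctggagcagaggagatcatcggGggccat
Gzmg: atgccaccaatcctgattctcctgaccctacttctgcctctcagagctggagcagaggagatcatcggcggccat
Gzmb: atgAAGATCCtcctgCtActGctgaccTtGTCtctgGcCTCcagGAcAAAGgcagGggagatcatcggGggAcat
Gzmd and Gzmg had the same 75 bases, Gzmf differed from the most common bases at 2 positions, Gzme at 3, Gzmc at 4 and Gzmb at 27. Over the whole coding sequence, Gzmd and Gzme were 93.25% identical, Gzme and Gzmg 89.54%, and Gzmf and Gzmg 86.85%. Gzmb and Gzmc were 75.94% identical. Of the 50-base stretches of its transcripts, Gzmd shared 21.9% exactly with another granzyme, Gzme 20.6%, Gzmg 19.8%, Gzmf 7.36%, Gzmn 5.57% and Gzmc 4.14%. Gzma, Gzmb, Gzmk and Gzmm shared 0%. Their rows therefore hold no 50-base stretch of another member, whereas the division of reads among Gzmd, Gzme and Gzmg is uncertain.

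**Figure D1:**
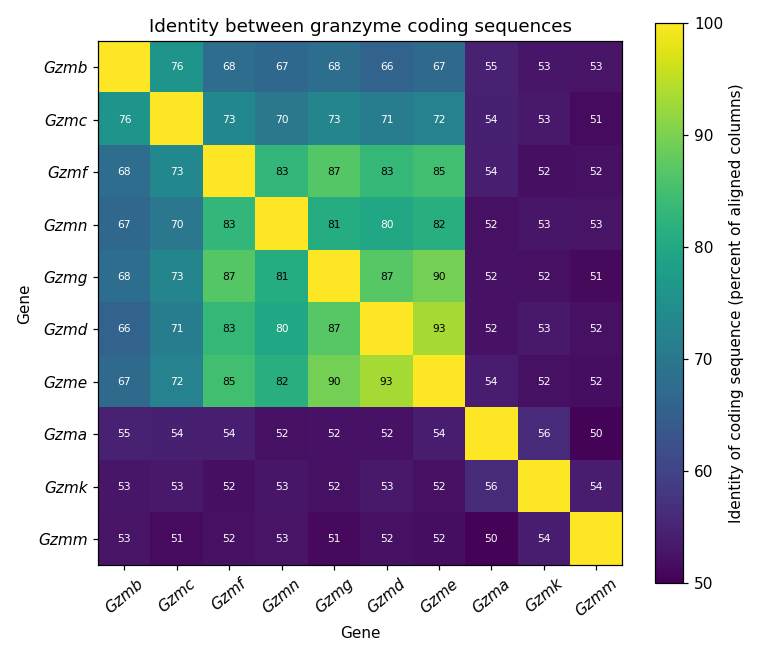
Identity of coding sequences between the granzyme genes, as percent of aligned columns for each pair of genes on both axes. Gzmd, Gzme, Gzmf and Gzmg form the block of highest identity, with 93.25% between Gzmd and Gzme, and Gzma, Gzmk and Gzmm stand apart from the rest.

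Gzmb encodes granzyme B (ENSMUSG00000015437, GRCm38 chr14:56258838-56262260, minus strand). Its level was 3.43, 4.54 and 5.78 CPM in naive libraries 1, 2 and 3. Syngeneic libraries had 84.3, 73.4 and 121 CPM and allogeneic libraries 1479, 1493 and 1647 CPM. The 3 groups did not overlap, and the lowest allogeneic library was more than 10 times above the highest syngeneic one. Group means were 4.58 ± 1.18, 93.0 ± 25.1 and 1540 ± 93.1 CPM (SD, n = 3 libraries). In the edgeR fit across all genes, Gzmb was 16.8-fold higher in allogeneic than in syngeneic libraries (log2 4.07 ± 0.22 SE, adjusted p = 1.277e-07). Against naive libraries the log2 difference was 8.45 ± 0.27 in allogeneic (adjusted p = 1.645e-09) and 4.38 ± 0.23 in syngeneic libraries (adjusted p = 8.698e-08). Both of these comparisons use the same naive libraries. The rise in the syngeneic group was 20.8-fold, so that Gzmb was well above the naive level in the libraries of both transplant types. Per kilobase of exon, Gzmb ranked 19th, 15th and 14th among 29014 genes in the allogeneic libraries, and between 391 and 691 in the syngeneic ones.

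Gzma encodes granzyme A, a tryptase (ENSMUSG00000023132, chr13:113093825-113100981, minus strand). Naive libraries had 2.47, 4.22 and 4.82 CPM, syngeneic libraries 15.0, 23.9 and 25.4 CPM, and allogeneic libraries 1295, 1283 and 1011 CPM. Here too the groups were separate, and the allogeneic libraries stood far above both others. The means were 3.84 ± 1.22, 21.4 ± 5.64 and 1196 ± 161 CPM (SD, n = 3). Gzma was 57.2-fold higher in allogeneic than in syngeneic libraries (log2 5.84 ± 0.28 SE, edgeR adjusted p = 6.453e-08). Set against naive libraries, it was higher by 8.35 ± 0.32 (adjusted p = 4.053e-09) in allogeneic and by 2.51 ± 0.25 (adjusted p = 1.462e-05) in syngeneic libraries on the log2 scale. Gzma ranked 14th, 14th and 18th per kilobase in the allogeneic libraries, beside Gzmb, and between 1748 and 2924 in the syngeneic libraries.

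Gzmk, the other tryptase, lies next to Gzma (ENSMUSG00000042385, chr13:113171608-113225908, minus strand). It had 1.47, 2.30 and 2.01 CPM in naive, 6.96, 5.60 and 6.49 CPM in syngeneic libraries and 104, 91.7 and 76.3 CPM in the allogeneic libraries. The groups were again separate and in the same order, at levels below those of Gzma and Gzmb after transplantation. The means were 1.93 ± 0.424, 6.35 ± 0.690 and 90.5 ± 13.7 CPM (SD, n = 3). Gzmk was 14.5-fold higher in allogeneic than in syngeneic libraries (log2 3.85 ± 0.20 SE, edgeR adjusted p = 1.011e-07). Its log2 difference from naive was 5.63 ± 0.22 (adjusted p = 5.05e-09) in allogeneic and 1.77 ± 0.20 (adjusted p = 3.291e-05) in syngeneic libraries. In the allogeneic libraries it ranked 563, 656 and 833 per kilobase.

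Gzmm did not follow this order. It encodes granzyme M, which cuts after methionine or leucine and is known from natural killer and unconventional T cells (ENSMUSG00000054206, chr10:79689020-79695261, plus strand). Naive libraries had 5.31, 5.04 and 6.66 CPM, syngeneic libraries 39.5, 36.1 and 45.9 CPM, and allogeneic libraries 10.5, 12.0 and 12.7 CPM. Syngeneic libraries were thus the highest and naive the lowest, with no overlap between the 3 groups. The means were 5.67 ± 0.868, 40.5 ± 4.96 and 11.7 ± 1.09 CPM (SD, n = 3). Gzmm was 3.42-fold lower in allogeneic than in syngeneic libraries (log2 -1.78 ± 0.14 SE, edgeR adjusted p = 1.833e-06). It was nonetheless higher than in naive libraries in both transplant groups, by 1.10 ± 0.14 (adjusted p = 3.654e-05) in allogeneic and 2.87 ± 0.14 (adjusted p = 6.494e-08) in syngeneic libraries on the log2 scale. The erythroid markers had the same order of groups. All 6 were detected in each group, and they summed to 1.08 to 1.26 CPM in naive, 1951 to 4950 CPM in the syngeneic and 9.96 to 22.2 CPM in the allogeneic libraries. In syngeneic libraries 1, 2 and 3 the sums were 1951, 4950 and 4225 CPM. The part of erythroid cells in the Gzmm values was not tested.

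**Figure D2:**
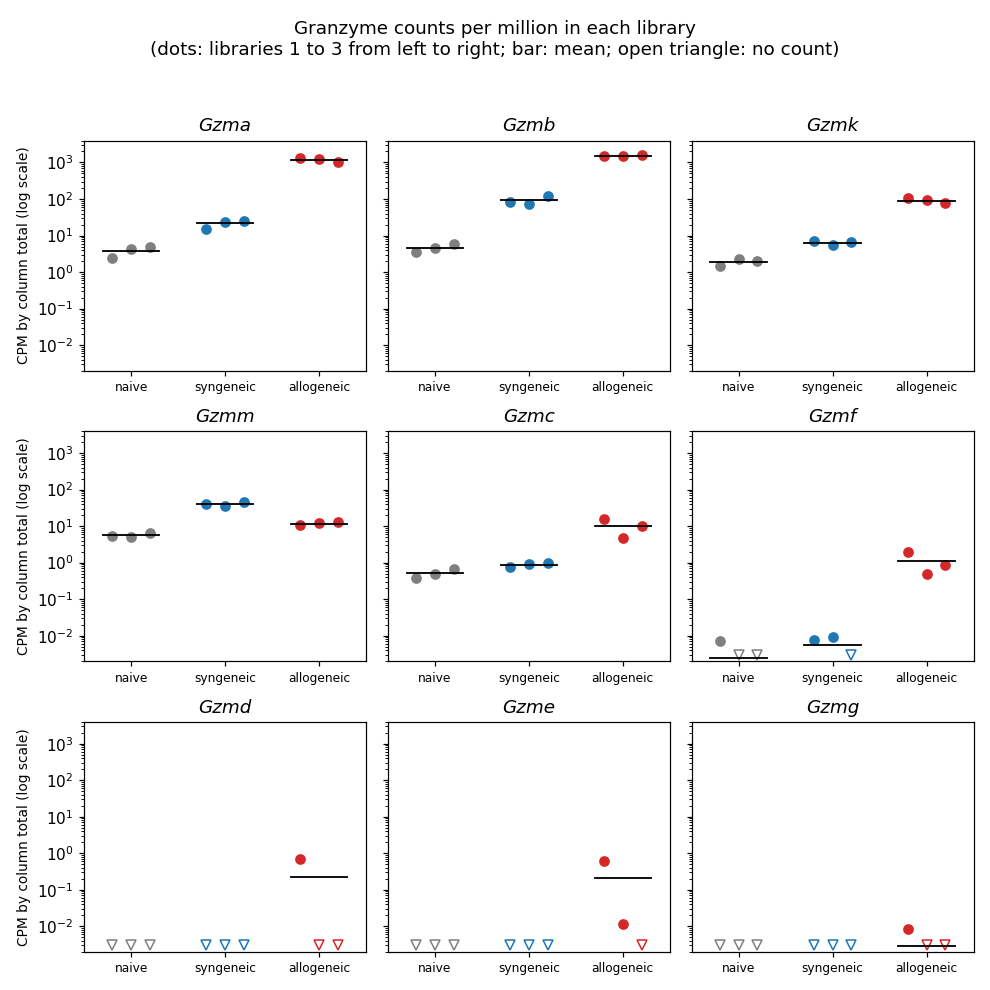
Level of each granzyme gene in every library, in CPM on a log axis, by group (points are the 3 libraries, bars the group mean, open triangles no count). Gzma, Gzmb and Gzmk were highest in the allogeneic libraries, and Gzmm was highest in the syngeneic libraries at 36.1 to 45.9 CPM.

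In the allogeneic against syngeneic comparison, 45.0% of the 19609 genes tested were called, 24.3% higher and 20.7% lower. Apart from Gzmf, which was among the tested genes because of its allogeneic reads, 4 of 5 granzyme genes were higher and 1, Gzmm, was lower. The median log2 difference of these 5 was 3.85, beside -0.02 over all genes tested. Against naive, 57.7% of genes were called in allogeneic libraries, 31.8% higher and 25.9% lower, and the 5 granzyme genes were higher, with a median of 5.63 beside -0.01. In syngeneic libraries 41.9% were called against naive, 22.4% higher and 19.5% lower, and 4 of the 5 were higher (Gzma, Gzmb, Gzmk and Gzmm), with a median of 2.51 beside 0.01. Libraries of the groups compared did not overlap for any of the 5 genes in allogeneic against syngeneic, where the same held for 52.7% of all genes tested, in allogeneic against naive (65.1% of genes) or in syngeneic against naive (56.5%). Calls were thus common in these libraries, and the granzymes are described by the sizes of their differences.

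Natural killer cells also hold granzymes, and the markers listed for them did not move together. The list held 7 markers (Ncr1, Klrb1c, Klra8, Klra4, Klre1, Gata2 and Tyrobp), of which Gata2 and Tyrobp are not particular to these cells. The sum of the 7 was 10.5 to 15.0 CPM in naive, 15.6 to 37.1 CPM in the syngeneic and 43.6 to 49.6 CPM in the allogeneic libraries. Klrb1c made up most of this sum in naive and allogeneic libraries, at 9.94 ± 1.91, 6.48 ± 1.77 and 30.7 ± 3.65 CPM (SD, n = 3), and Ncr1 was 0.271, 0.634 and 1.72 CPM. The other markers were highest in the syngeneic libraries, except Gata2 (0.265, 1.53 and 3.17 CPM). Klre1 was 0.981, 6.54 and 3.72 CPM in naive, syngeneic and allogeneic libraries, Tyrobp 0.701, 11.9 and 7.19 CPM and Klra4 0.126, 1.25 and 0.0132 CPM. Klra8 was 0.0322 and 0.523 CPM in naive and syngeneic libraries and at 0 in all 3 allogeneic ones. By group means, Ncr1 and Gata2 had the order of Gzma, Gzmb and Gzmk, and Klre1 and Tyrobp had that of Gzmm. In allogeneic libraries 1, 2 and 3 Gata2 was 4.93, 1.51 and 3.09 CPM, the order of the mast-cell marker Cpa3 (5.21, 0.872 and 1.88 CPM). Tyrobp was 4.50, 14.4 and 16.7 CPM in syngeneic libraries 1, 2 and 3, where the neutrophil markers summed to 405, 1253 and 1356 CPM. The part of natural killer or other cells in the granzyme levels was not tested. The coreceptor transcripts differed by far less. Cd8a was 426 ± 24.9, 585 ± 68.5 and 393 ± 64.4 CPM in naive, syngeneic and allogeneic libraries, and Cd4 was 450 ± 17.5, 198 ± 25.8 and 423 ± 19.6 CPM (SD, n = 3). In the edgeR fit Cd8a was lower in allogeneic than in syngeneic libraries (log2 -0.57, adjusted p = 0.003802) and Cd4 was higher (log2 1.11, adjusted p = 5.478e-05). Set against Cd8a within each library, which does not depend on library scaling, the log2 ratio of Gzmb to Cd8a counts was -6.94, -6.48 and -6.29 in naive libraries. It was -2.96, -2.83 and -2.25 in the syngeneic and 2.21, 1.80 and 1.93 in allogeneic libraries. Gzmb counts thus exceeded Cd8a counts only in the allogeneic libraries. The differences in mean log2 ratio were 4.66 for allogeneic against syngeneic, 8.55 for allogeneic against naive and 3.89 for syngeneic against naive. Each had an exact 2-sided permutation p of 0.1, the smallest that 3 against 3 libraries can give (0.12 after adjustment over 6 ratio comparisons).

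The balance between Gzma and Gzmb was lowest in the syngeneic libraries. The log2 ratio of Gzma to Gzmb counts was -0.47, -0.11 and -0.26 in naive, -2.49, -1.62 and -2.26 in syngeneic and -0.19, -0.22 and -0.70 in allogeneic libraries. Naive and allogeneic libraries overlapped, and every syngeneic library was below both. Allogeneic exceeded syngeneic libraries by 1.75, and syngeneic libraries were below naive ones, with a difference of -1.84 (exact 2-sided permutation p = 0.1 each, adjusted p = 0.12). Between allogeneic and naive libraries the difference was -0.09 (exact permutation p = 0.7), which does not show that the ratios were alike.

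All granzymes together took 0.00165% of counts in naive, 0.0162% in the syngeneic and 0.285 ± 0.00808% in allogeneic libraries (SD, n = 3). Their sum was 13.1, 16.6 and 19.9 CPM in naive, 147, 140 and 200 CPM in the syngeneic and 2908, 2885 and 2758 CPM in the allogeneic libraries. The make-up of this pool was compared per kilobase of exon, as percent of the family sum in each library. In naive libraries it was spread over Gzmm (36.2, 26.4 and 29.1%), Gzma (29.3 ± 4.02%), Gzmb (24.8 ± 1.03%), Gzmk (10.9 ± 1.73%) and Gzmc (4.45 ± 0.236%). Gzmb made up the largest share in syngeneic libraries, at 55.2, 48.9 and 57.6%, followed by Gzmm at 25.2, 23.5 and 21.3% and Gzma at 18.0 ± 4.44%. In allogeneic libraries Gzma (53.2, 53.2 and 45.1%) and Gzmb (42.6, 43.4 and 51.5%) made up nearly the whole pool, and Gzmm had 0.296, 0.340 and 0.387%. Gzma was above Gzmb in allogeneic libraries 1 and 2 and below it in library 3.

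**Figure D3:**
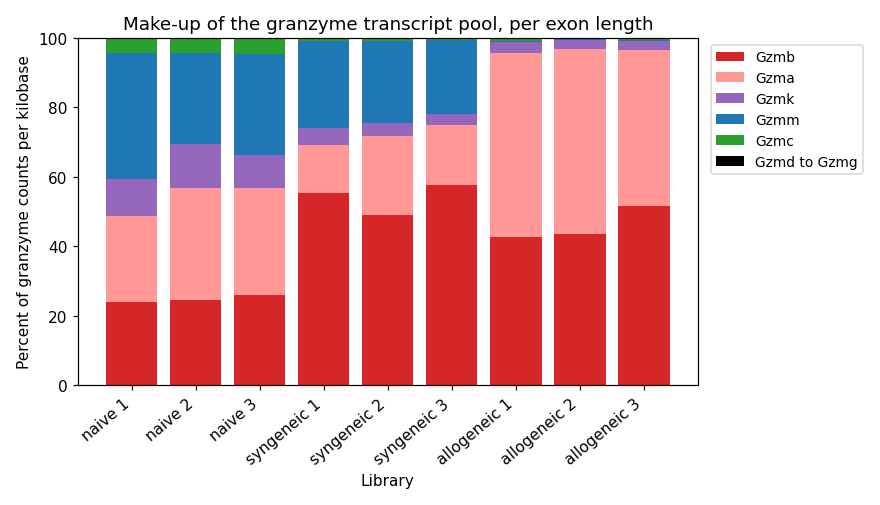
Make-up of the granzyme transcript pool in each of the 9 libraries, as percent of the family sum of counts per kilobase of exon. Gzmm has a share of 21.3 to 36.2% in the naive and syngeneic libraries and under 1% in the allogeneic libraries, where Gzma and Gzmb fill the bars.

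Gzmc is the copy nearest to Gzmb (ENSMUSG00000079186, chr14:56231441-56234656, minus strand), and its substrates are less well known. It had 0.390, 0.494 and 0.654 CPM in naive, 0.783, 0.900 and 0.950 CPM in the syngeneic and 15.9, 4.74 and 10.2 CPM in the allogeneic libraries. The allogeneic libraries were separate from the others and spread over a more than 3-fold range among themselves, with library 1 highest and library 2 lowest. The means were 0.513 ± 0.133, 0.877 ± 0.0858 and 10.3 ± 5.57 CPM (SD, n = 3). Gzmc was 12.1-fold higher in allogeneic than in syngeneic libraries (log2 3.60 ± 0.42 SE, edgeR adjusted p = 4.312e-05) and higher than in naive libraries by 4.41 ± 0.44 (adjusted p = 5.97e-06). Syngeneic against naive, the log2 difference of 0.81 ± 0.41 did not pass (adjusted p = 0.1393).

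Gzmf (ENSMUSG00000015441, chr14:56205263-56211417, minus strand) had nearly all of its reads in the allogeneic libraries. Its counts were 1, 0 and 0 in naive, 1, 1 and 0 in the syngeneic and 238, 86 and 91 in allogeneic libraries. The allogeneic counts correspond to 2.02, 0.487 and 0.875 CPM, with library 1 highest. Pooled over libraries and scaled to depth, the ratio of allogeneic to syngeneic was 180.4 (exact 95% counting interval 49.63 to 1495, 415 against 2 counts). Against naive it was 381.5 (68.09 to 1.51e+04, 415 against 1 count). Without allogeneic library 1 these ratios were 109.3 (29.81 to 909.4) and 231.1 (40.94 to 9178), a setting added after the data were seen. These intervals cover counting error only and leave out the spread between libraries, so they are not read as tests of a group difference. Since Gzmf was kept by the filter through the group in which it is high, no p-value is given for it. Its points in the figure of pathway genes are not read as a test. Of the exon bases of Gzmf, 151 overlap the antisense gene Gm4022, and since the strand setting of the counting is unknown here, reads of both cannot be told apart there.

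Gzmd (ENSMUSG00000059256, chr14:56129556-56132608), Gzme (ENSMUSG00000022156, chr14:56117626-56120625) and Gzmg (ENSMUSG00000040284, chr14:56156582-56159579), all on the minus strand, were detected in allogeneic libraries alone. Gzmd had 80 counts in allogeneic library 1 (0.678 CPM) and 0 in the other 8 libraries. Gzme had 71 counts in allogeneic library 1 (0.602 CPM) and 2 in library 2, and 0 elsewhere. A single count of Gzmg came from allogeneic library 1. Nearly all reads of these 3 genes thus came from 1 of the 3 allogeneic pools, so that they describe that pool. Over the 3 libraries of a group, the limit of 3 counts was 0.00819 CPM in naive and 0.00866 CPM in syngeneic libraries.

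Because the copies can share reads, their counts were also summed before the fit. The sum of Gzmc to Gzmg was 55, 56 and 75 counts in naive, 103, 98 and 103 in the syngeneic and 2263, 926 and 1155 in allogeneic libraries. In CPM the means were 0.515 ± 0.129, 0.883 ± 0.0828 and 11.8 ± 7.00 (SD, n = 3). The sum was higher in allogeneic than in syngeneic libraries by 3.80 ± 0.44 on the log2 scale (edgeR adjusted p = 4.37e-05) and than in naive libraries by 4.61 ± 0.46 (adjusted p = 6.608e-06). Without allogeneic library 1 these became 3.17 and 3.98, and both calls were kept. Syngeneic against naive, the difference was 0.81 ± 0.43 (adjusted p = 0.1589). Markers of mast cells and basophils, which express proteases of the same locus, were also highest in allogeneic library 1. All 7 (Cpa3, Fcer1a, Kit, Ms4a2, Mcpt8, Prss34 and Hdc) were detected in each group, with sums of 70.2, 32.3 and 44.9 CPM in the allogeneic libraries 1, 2 and 3, 8.07 to 29.7 CPM in the syngeneic and 6.23 to 7.81 CPM in naive libraries. For 6 of the 7 the order over the allogeneic libraries was that of Gzmc and Gzmf (library 1, then 3, then 2), and Hdc, the largest, was nearly level at 22.1, 21.9 and 20.2 CPM. Some genes of the neutrophil lineage, Mpo, Elane, Prtn3 and Ctsg, had this order too. In allogeneic libraries 1, 2 and 3 Mpo was 155, 38.8 and 93.3 CPM, Prtn3 40.3, 11.3 and 24.1 CPM and Ctsg 26.8, 4.75 and 12.0 CPM. The other neutrophil markers, S100a8, S100a9, Ltf, Camp and Ngp, were instead highest in library 3. So was the sum of the 7 neutrophil markers, at 694, 599 and 1085 CPM. The part of these cells in the levels of the copies was not tested.

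Along chromosome 14, allogeneic levels were lower from Gzmb to Gzmc, Gzmf and Gzmg. Per kilobase of exon, Gzmb was 1030, 1040 and 1147 CPM in allogeneic libraries 1, 2 and 3, Gzmc 17.8, 5.31 and 11.4, Gzmf 1.23 ± 0.866 (SD, n = 3), and Gzmg 0.00933, 0 and 0. Further along, Gzmd was 0.704, 0 and 0 and Gzme 0.657, 0.0124 and 0, so that these stood above Gzmg in library 1 and at or near 0 in the others. Beyond the granzymes stand Ctsg, the neutrophil protease cathepsin G, and the mast-cell protease genes. Ctsg was 0.126 CPM in naive, 18.4 ± 10.7 CPM in the syngeneic and 14.5 ± 11.2 CPM in the allogeneic libraries, and the transplant groups were not called different (log2 -0.25, edgeR adjusted p = 0.7546). Mcpt8, a basophil protease, was 0.0701, 1.72 ± 1.35 and 4.72 ± 3.21 CPM (allogeneic against syngeneic log2 1.55 ± 0.67, adjusted p = 0.07865). Cma1, a mast-cell chymase, had 1, 1 and 1 counts in naive, 1, 0 and 8 in the syngeneic and 66, 49 and 18 in the allogeneic libraries. It passed the filter through the allogeneic libraries alone, and 8 of its 9 syngeneic counts came from library 3, so no test is given. Cma2, Mcpt1, Mcpt2 and Mcpt9 had a few reads and were not tested, and Mcpt4 had no count in any library.

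**Figure D4:**
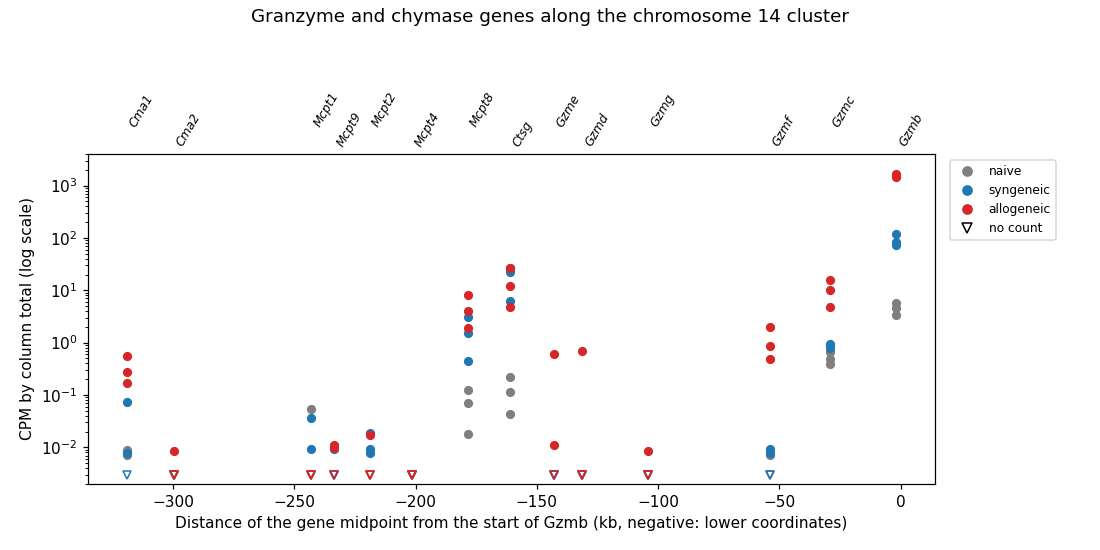
Level in every library (CPM, log axis) of the genes at the granzyme B locus against their distance from the start of Gzmb in kilobases, coloured by group, with open triangles for no count. Allogeneic libraries are at 1479 to 1647 CPM at Gzmb, 4.74 to 15.9 CPM at Gzmc and 0.487 to 2.02 CPM at Gzmf.

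At the Gzma and Gzmk locus, Esm1 and Snx18 were called higher in allogeneic than in syngeneic libraries, as were 24.3% of all genes tested. Esm1, which encodes endocan and lies within the span of Gzmk on the opposite strand, was 0.178, 1.03 and 12.2 ± 1.46 CPM in naive, syngeneic and allogeneic libraries (log2 3.58 ± 0.21, edgeR adjusted p = 2.626e-07). It shares 0 exon bases with Gzmk, but libraries of total RNA also hold intron reads. Cdc20b had 5, 1 and 4 counts in naive, 5, 6 and 10 in the syngeneic and 68, 161 and 105 in the allogeneic libraries, and it passed the filter through the allogeneic libraries alone. The sorting nexin gene Snx18 was 48.2, 41.8 and 66.4 CPM (log2 0.68 ± 0.08). Of 5 tested neighbours of Gzmm (Prtn3, Elane, Bsg, Hcn2 and Polrmt), 0 were called between the transplant groups, beside 45.0% of all genes tested. Higher than naive in both groups were 4, beside 31.8% of genes higher in allogeneic and 22.4% in syngeneic libraries. The neutrophil proteases Elane and Prtn3 were 25.6 and 33.4 CPM in the syngeneic and 25.6 and 25.3 CPM in the allogeneic libraries, against 0.298 and 0.199 CPM in naive ones. Elane is itself 1 of the 7 neutrophil markers whose sums were given above, and the part of neutrophils in the levels of Ctsg, Elane and Prtn3 was not tested. Bsg was 89.8, 175 and 175 CPM in naive, syngeneic and allogeneic libraries, Hcn2 0.302, 1.82 and 2.59 CPM, and Polrmt 44.2, 36.0 and 35.7 CPM. Cfd did not pass the filter. Gzmm was called lower in allogeneic than in syngeneic libraries, and none of these neighbours was called. The log2 differences had wide errors for Prtn3 (-0.32 ± 0.50 SE), Elane (0.07 ± 0.55) and Hcn2 (0.52 ± 0.25). A missing call therefore does not show that these were level.

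The stretches before the start sites are shown for Gzmb and Gzma, the most abundant members, and for Gzmm, the member with another order of groups, from RefSeq (GRCm38.p6), with all 10 symbols matched. Each holds the 250 bases before the annotated start, and capitals mark matches to 4 motifs searched on both strands: AP-1 (TGANTCA), the RUNX core (TGTGGT), the CRE core (TGACGT) and the T-box core (GGTGTGA). They lie at chr14:56262335-56262584 (Gzmb, minus strand), chr13:113100982-113101231 (Gzma, minus strand) and chr10:79688770-79689019 (Gzmm, plus strand).
Gzmb: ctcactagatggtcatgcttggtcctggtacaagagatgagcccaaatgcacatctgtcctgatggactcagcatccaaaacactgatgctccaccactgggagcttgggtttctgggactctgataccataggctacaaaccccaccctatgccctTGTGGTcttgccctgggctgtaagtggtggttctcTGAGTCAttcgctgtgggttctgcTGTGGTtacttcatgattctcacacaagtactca
Gzma: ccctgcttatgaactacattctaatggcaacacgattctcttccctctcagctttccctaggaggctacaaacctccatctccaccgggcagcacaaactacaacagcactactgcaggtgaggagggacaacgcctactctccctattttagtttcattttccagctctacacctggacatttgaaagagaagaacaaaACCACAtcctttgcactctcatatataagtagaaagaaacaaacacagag
Gzmm: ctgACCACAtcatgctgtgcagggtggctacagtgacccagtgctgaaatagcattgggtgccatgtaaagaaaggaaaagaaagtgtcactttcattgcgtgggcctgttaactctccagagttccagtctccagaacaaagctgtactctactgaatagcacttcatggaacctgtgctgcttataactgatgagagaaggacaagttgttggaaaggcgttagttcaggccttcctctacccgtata
Gzmb had 1 AP-1 match, 58 bases before the start, and RUNX cores at 93 and 34 bases. Gzma had 1 RUNX core, at 50 bases, and Gzmm 1 at 247 bases. An AP-1 match was found in 1 of the 10 granzyme genes and in 6.75% of 32851 promoter windows of this length. A RUNX core was found in 8 of 10 genes and 14% of windows. Those 8 include the 5 copies Gzmc to Gzmg, each with RUNX cores 108 to 133 and 174 to 195 bases before the start. Duplicated genes are not independent, and genes were counted by symbol, whatever their number of starts. The shares of genes and of windows are therefore not directly comparable. T-box cores were found in 2 of 10 genes, Gzmk and a second start of Gzmm, and in 3.33% of windows. The CRE core was found in 3 of 10 (Gzmc, Gzmf and Gzmg) and in 6.47% of windows. In these 3 it reads the same on both strands, as overlapping matches. It lies in a block of 70 bases that the 5 copies share, shown with capitals for bases that differ from Gzmc.
Gzmc: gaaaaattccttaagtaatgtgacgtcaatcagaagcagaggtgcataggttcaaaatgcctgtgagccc
Gzmd: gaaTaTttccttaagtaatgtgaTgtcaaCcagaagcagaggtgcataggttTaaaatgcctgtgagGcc
Gzme: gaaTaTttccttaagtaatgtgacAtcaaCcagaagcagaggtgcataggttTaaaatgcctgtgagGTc
Gzmf: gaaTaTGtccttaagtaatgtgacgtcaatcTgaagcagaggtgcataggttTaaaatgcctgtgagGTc
Gzmg: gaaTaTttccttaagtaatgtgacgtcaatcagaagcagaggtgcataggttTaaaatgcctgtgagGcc
These blocks differ from Gzmc at 6 positions in Gzmd, 7 in Gzme, 7 in Gzmf and 4 in Gzmg. They lie on the minus strand at chr14:56234665-56234734 (Gzmc), chr14:56132605-56132674 (Gzmd), chr14:56120638-56120707 (Gzme), chr14:56211440-56211509 (Gzmf) and chr14:56159607-56159676 (Gzmg). The CRE core was present in Gzmc and Gzmf, the copies with the most reads, and also in Gzmg, which had 1 count in all 9 libraries. A match describes letters alone and not binding.

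Genes that serve granzymes were followed as a list of 30, all of which were tested. Between the transplant groups 21 were higher in allogeneic libraries and 2 lower, beside 24.3% and 20.7% of all genes tested, with a median log2 difference of 0.80. In the allogeneic against naive comparison 26 were higher and 0 lower (median 1.36), beside 31.8% and 25.9% of all genes. In syngeneic against naive 17 were higher and 2 lower (median 0.39), beside 22.4% and 19.5%. The list is described by role, with these shares as the background. Examples are the genes of highest mean level in each role, and Ctsc, Ctsh, Prf1, Serpinb1a, Apex1 and Dffa were added after their values were seen.

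The delivery genes, which dock, fuse and form the pore through which granzymes pass, were called higher in allogeneic than in syngeneic libraries in 6 of 6 cases (median log2 1.30). In syngeneic against naive 2 of 6 were higher (median 0.10). Nkg7, a granule membrane protein, was 119, 254 and 529 CPM in naive, syngeneic and allogeneic libraries (allogeneic against syngeneic log2 1.07 ± 0.12, edgeR adjusted p = 2.829e-05). Rab27a, the GTPase that docks granules, was 90.9, 103 and 366 CPM (log2 1.85 ± 0.11, adjusted p = 2.199e-07), and Unc13d, which primes them for fusion, was 168, 160 and 231 CPM (log2 0.53 ± 0.11, adjusted p = 0.002407). Prf1, which encodes perforin, was 57.3 ± 4.04, 54.9 ± 6.52 and 308 ± 47.7 CPM (SD, n = 3). It was higher in allogeneic than in syngeneic libraries by 2.49 ± 0.13 on the log2 scale (adjusted p = 9.154e-08). Between syngeneic and naive libraries its log2 difference was -0.02 ± 0.12 (adjusted p = 0.9109), whereas Gzmb differed by 4.38 ± 0.23 in the same comparison.

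Of 9 maturation and sorting genes, 6 were higher and 1 lower in allogeneic than in syngeneic libraries (median log2 0.72), and 3 were higher in syngeneic than in naive libraries (median 0.12). Ctsc, the protease that removes the activation dipeptide of granzymes, was higher by 1.15 ± 0.08 in allogeneic against syngeneic libraries (edgeR adjusted p = 6.913e-07). Srgn, the proteoglycan that holds granzymes in the granule, was 136, 124 and 361 CPM in naive, syngeneic and allogeneic libraries (log2 1.57 ± 0.12, adjusted p = 1.98e-06). Igf2r and M6pr, the mannose 6-phosphate receptors, were 240, 214 and 463 CPM and 138, 146 and 238 CPM (log2 1.11 ± 0.12 and 0.72 ± 0.09). The lower gene was Ctsh, another cathepsin that can process granzyme B (log2 -1.62 ± 0.43, adjusted p = 0.009678). Ctsh was higher than naive in both transplant groups, with means of 0.362, 6.12 and 1.90 CPM in naive, syngeneic and allogeneic libraries. In syngeneic libraries 1, 2 and 3 it was 2.01, 8.53 and 7.80 CPM, beside macrophage and monocyte marker sums of 46.7, 172 and 172 CPM. In allogeneic libraries it was 2.42, 1.45 and 1.85 CPM, beside sums of 47.4, 53.9 and 83.5 CPM. The part of these cells in the level of Ctsh was not tested.

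The inhibitors, 5 intracellular serpins listed here as blockers of granzymes, had the largest median difference of the 4 roles in all 3 comparisons. Whether each of the 5 blocks a granzyme was not tested. Of 5, 4 were higher in allogeneic than in syngeneic libraries (median log2 3.01), and 5 were higher in allogeneic than in naive libraries (median 4.35). The median of 4.35 is the value of Serpinb1a, which was not called between the transplant groups (edgeR adjusted p = 0.0865). Serpinb1a was 5.02, 16.4 and 15.5 CPM in syngeneic libraries 1, 2 and 3, beside neutrophil marker sums of 405, 1253 and 1356 CPM. In allogeneic libraries it was 26.0, 15.9 and 22.8 CPM, beside sums of 694, 599 and 1085 CPM. The part of neutrophils in its level was not tested. Serpinb9, the inhibitor of granzyme B, was 16.5, 34.5 and 274 CPM in naive, syngeneic and allogeneic libraries (log2 3.01 ± 0.10, edgeR adjusted p = 5.179e-09). Serpinb6b was 12.2, 32.8 and 340 CPM (log2 3.39 ± 0.08, adjusted p = 1.152e-09), and Serpinb6a was 17.7, 12.0 and 33.7 CPM (log2 1.52 ± 0.12, adjusted p = 3.007e-06). In syngeneic against naive libraries (median 1.46) 4 were higher and 1, Serpinb6a, was lower (log2 -0.53 ± 0.12, adjusted p = 0.004594).

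Of 10 substrate genes, whose proteins granzymes cleave, 5 were higher and 1 lower in allogeneic than in syngeneic libraries (median log2 0.23). Of all genes tested, 24.3% were higher and 20.7% lower in this comparison. Against naive 8 were higher and 1 lower in syngeneic libraries (median 0.54), beside 22.4% and 19.5% of all genes. In allogeneic libraries 8 were higher than in naive ones (median 0.79), beside 31.8% of all genes. Hmgb2, a member of the granzyme A target complex, was 54.4, 242 and 407 CPM in naive, syngeneic and allogeneic libraries (log2 0.77 ± 0.11, edgeR adjusted p = 0.0002256). Set was 195, 239 and 258 CPM (log2 0.13, adjusted p = 0.3709) and Parp1 123, 174 and 154 CPM (log2 -0.16, adjusted p = 0.1417). Apex1, a repair endonuclease, was the lower gene between the transplant groups (log2 -0.77 ± 0.17, adjusted p = 0.003571), and Dffa was lower in syngeneic than in naive libraries (log2 -0.23 ± 0.08, adjusted p = 0.04704).

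**Figure D5:**
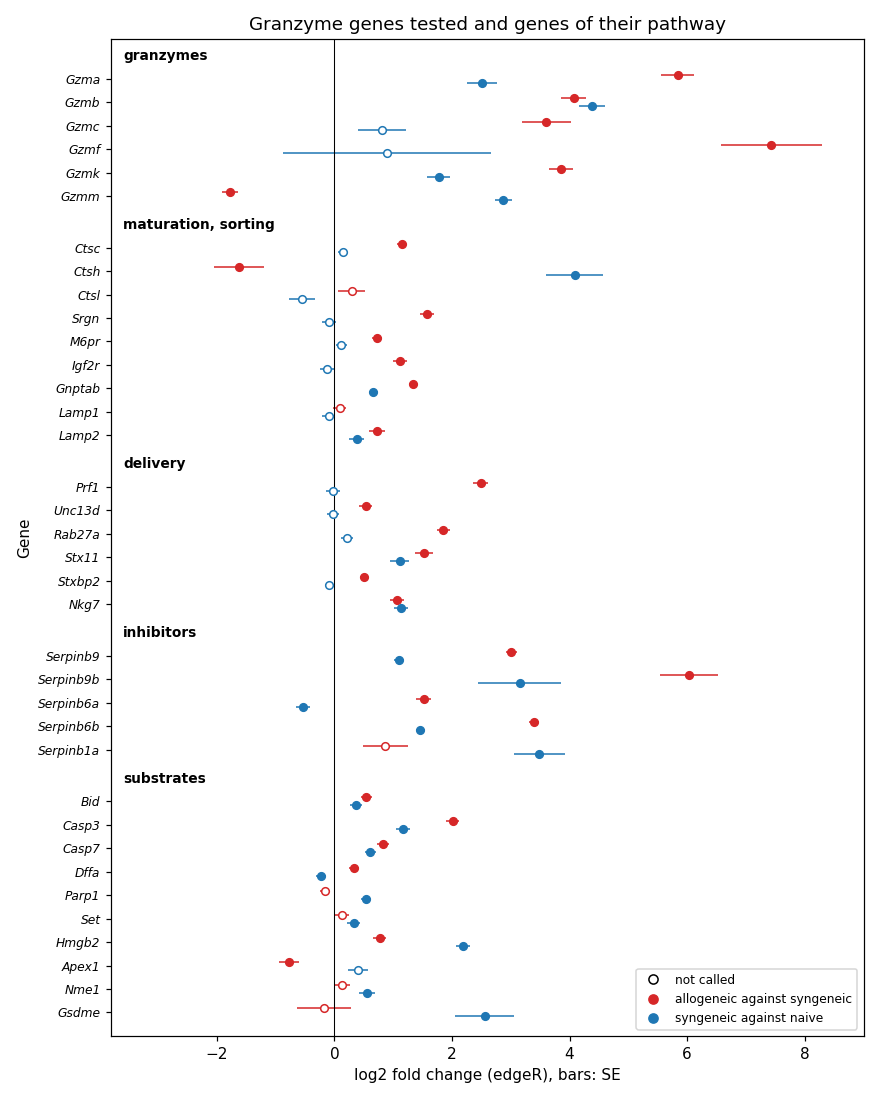
Log2 differences with SE of the 6 tested granzymes and the 30 genes that serve them, grouped by role. Comparisons are allogeneic against syngeneic and syngeneic against naive libraries, with open points for genes not called. Gzmf was kept by its allogeneic reads alone, and its points are not read as a test. In allogeneic against syngeneic libraries all 6 delivery genes were higher, and Ctsh and Apex1 were lower.

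Likeness of pattern was measured as the root mean square difference between mean-centred log2 CPM profiles over the 9 libraries, among 8653 other genes with a mean of at least 10 CPM. Gzma was most like Havcr2 (0.504), which encodes the receptor TIM-3, then Lgals3 (0.601) and Dnase1l3 (0.813). Gzmb was most like Havcr2 as well (0.468), followed by AA467197 (0.485) and Ifitm2 (0.544). Havcr2 was 0.413 ± 0.113 CPM in naive, 4.30 ± 1.55 CPM in the syngeneic and 123 ± 20.7 CPM in the allogeneic libraries (SD, n = 3). For Gzmk the closest were Ncald (0.299), S100a4 (0.322) and Adam8 (0.362). Gzmm was closest to Fam214b (0.348), Zfp367 (0.427) and Dhrs11 (0.431). Fam214b was 7.41 ± 0.916, 39.5 ± 12.7 and 13.1 ± 3.21 CPM in naive, syngeneic and allogeneic libraries. Among the granzymes, Gzma and Gzmb were 0.889 apart and Gzmk and Gzmc 0.735, while Gzmm was 2.17 to 3.53 from the others.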

How the data were processed

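RNA from sorted T cells of the spleen was sequenced in 9 libraries, 3 per group, grouped by title. Libraries were stranded and depleted of ribosomal RNA, per the labels' protocols. The authors deposited raw read counts per gene. Per the submitters' processing notes, the build was GRCm38 and the tools included HTSeq 0.6.1, TopHat2 2.0.13, Bowtie2 2.2.1 and FastQC 0.11.3. The sources used here do not give the annotation release, strand setting or handling of reads with several alignments. GENCODE M21 matched 29014 identifiers and left 215 unmatched.

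CPM was computed by column total. Differences were tested on the counts in 1 model of all 9 libraries with edgeR 4.0.16 in R 4.3.3 (filterByExpr, TMM, glmQLFit and glmQLFTest), which kept 19609 genes. Calls required a p under 0.05 after Benjamini-Hochberg adjustment over all genes tested. The SE is the log2 difference divided by the square root of F. The test was tried on simulated counts with 100 genes raised 1.5-fold and 100 raised 2-fold in the allogeneic libraries. In allogeneic against syngeneic, 35% and 73% of these were called, with 6 false calls. A missing call thus says little about differences of this size. Fewer genes changed in the simulation than were called in the data, and all of them upward. The chi-square per degree of freedom between replicates of a group was at least 22.47, above sampling noise. Ratios within a library were compared with exact 2-sided permutation tests in SciPy 1.17.1. Alternatives were DESeq2 1.42.0, limma 3.58.1 (voom), other scalings and filters, fits of the groups compared alone, a replicate block and leaving out each library.

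Genes named are the family, the 3 nearest patterns of Gzma, Gzmb, Gzmk and Gzmm, the coreceptors, up to 3 genes of highest mean CPM per pathway role, all listed locus neighbours, and those stated as added. The members and lists were chosen with earlier results of these data known. Protein identity was planned; coding sequence was compared instead, since no protein table was used here.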

Additional observations from a re-analysis of the deposited data

How the results depend on the processing

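Granzyme genes other than Gzmf kept their direction and side of the threshold in 253 of 255 combinations of gene, comparison and alternative fit. Gzmc in syngeneic against naive libraries passed in the other 2, namely the fit of those 2 groups alone (log2 0.79, edgeR adjusted p = 0.0394) and the fit without allogeneic library 2 (adjusted p = 0.0351). The summed copies in the same comparison passed with those groups alone (0.79, adjusted p = 0.0371), and ranged from 0.65 to 1.04 when 1 library was left out, passing without allogeneic library 1 or 2. The log2 ratio of Gzma to Gzmb in allogeneic against naive libraries changed sign, with a range of -0.187 to 0.0749 when 1 library was left out. With the longest transcript as length, the share of Gzmb in naive libraries became 23.5% and that of Gzmm 25.7% in syngeneic and 0.387% in allogeneic libraries. With stretches of 100 bases, the share found in another granzyme became 0.231% for Gzmd, 0.247% for Gzmg and 0% for Gzmc, Gzme, Gzmf and Gzmn, and the sources used here do not give the read length. Counts of all genes called stayed within 1.5 times in 51 of 51 alternatives. Samples with the same replicate number correlated in their deviations at -0.206 to 0.436, and not every sample correlated best with its own number. With 3 libraries per group the deviations from a group mean depend on each other. The correlations therefore cannot exclude a shared batch or pairing, and the main fit assumed none. With the replicate block, 8669, 11226 and 8034 genes were called in allogeneic against syngeneic, allogeneic against naive and syngeneic against naive libraries, in place of 8832, 11315 and 8213. The limit of 3 counts was 0.0170 to 0.0289 CPM per library.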
